A study of Saccharomyces cerevisiae with 6 samples.

Results

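The genes described here build the yeast peroxisome and run the oxidation of fatty acids inside it. They were taken from the deposited table by gene symbol: every probe set named for 1 Saccharomyces cerevisiae gene whose symbol is PEX followed by a number, and those of POX1, FOX2, POT1, FAA2, PXA1, PXA2, ECI1, DCI1, SPS19, TES1, IDP3, MDH3, ANT1, CAT2, PIP2, OAF1 and ADR1. This gave 42 of the 5449 genes measured, 25 PEX genes and 17 others, each with 1 probe set of its own. The tested cultures were grown for 5 h in the rich glucose medium YPD with 80 µM clioquinol (CQ), a quinoline drug that chelates metals such as zinc, copper and iron. The reference cultures were grown for the same 5 h in YPD with 1% of the solvent dimethyl sulfoxide (DMSO), and the DMSO content of the CQ cultures is not given in the sources used here. All cultures were of the strain BY4742, a haploid of mating type alpha related to S288C that carries deletions at HIS3, LEU2, LYS2 and URA3. Each group held 3 biological replicates with 1 Affymetrix array each.

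In budding yeast the peroxisome is the sole site of fatty acid beta-oxidation. Proteins called peroxins, encoded by the PEX genes, insert its membrane proteins, carry folded enzymes through the membrane, recycle the import receptors by ubiquitin and an ATPase, and set the size and number of the organelles. Fatty acids are made into CoA esters, oxidised with release of hydrogen peroxide and cut by thiolase into acetyl-CoA, which leaves on carnitine or through the glyoxylate cycle. The enzymes are repressed by glucose and induced by oleate through the zinc cluster pair Oaf1 and Pip2, together with the zinc finger activator Adr1.

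The values are the deposited linear intensities, in arbitrary units that follow the amount of a transcript relative to the others on the array. Median intensities over all genes were 977 to 1008 on the CQ arrays and 889.7 to 926 on the DMSO arrays. All 42 genes lay above background on all 6 arrays, with background set per array at the level that 95% of its fission yeast probe sets stay under. CQ replicate 2 stood apart on the next principal component after the one that separated the groups (-14.49, against -0.75 to 9.12 for the other arrays). The 3'/5' index averages the log2 ratio of 3' over 5' signals of 6 transcripts, which is affected by how intact the RNA is and by how it was labelled. It was 1.30, 1.53 and 1.15 on the CQ arrays and 0.96, 0.96 and 0.88 on the DMSO arrays. The groups did not overlap, and the exact two-sided permutation p was 0.1, the smallest that 3 against 3 arrays allow. Mating-type genes also moved with the group: of 6 a-specific genes 4 rose, with a summed intensity over all 6 of 1118 to 1305 on CQ arrays and 858 to 876 on DMSO arrays. STE6, which did not pass, read 458 to 552 and was the largest part of these sums. The 4 a-specific genes that rose read only 66.6 to 253, against array backgrounds of 41.8 to 59.8. All 4 alpha-specific genes fell, with sums of 7779 to 8481 on CQ arrays and 17141 to 18197 on DMSO arrays. No gene of either list was at 0, and the part of mating-type expression in the results was not tested. Of the deleted genes LYS2 and URA3 read under 20 and LEU2 24.4 to 58.6 on all arrays. HIS3, which is deleted only in part in this strain, read 732 to 1120 on CQ arrays and 1530.1 to 1703 on DMSO arrays, which checks nothing about the deletion.

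More peroxisome and beta-oxidation genes were higher with CQ than lower, and their changes were of moderate size. Of the 42 genes 21 rose, 7 fell and 14 did not pass an adjusted p of 0.05 in limma's moderated test over all genes. The calls in either direction made up 66.7% of the 42 genes, beside 68% of all genes tested. The 21 of 42 that rose stand beside 36.1% of all genes, and the 7 of 42 that fell, or 16.7%, beside 31.9%. Centring the arrays on their medians gave 15 higher and 10 lower, beside 1578 higher and 2211 lower among all genes, against 1969 and 1739 as deposited. That centring moved the median difference of all genes to -0.11, against 0.025 as deposited, so differences of that size have no settled direction. The CQ and DMSO arrays did not overlap for 27 of the 42 genes, or 64.3%, beside 73.7% of all genes. All CQ arrays were above for 21, beside 38.6% of all genes, and below for 6, beside 35.1%.

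The log2 differences between CQ and DMSO ran from -0.80 to 1.62, with a median of 0.23, beside a median of 0.025 over all genes. A rise of at least 1 log2 unit, which is a doubling, was found for POX1, PEX27, PXA1, PEX15 and OAF1, 5 of 42 genes, beside 9.71% of all genes. No member fell by that much, beside 7.51% of all genes. Calls of 15 members, 12 higher and 3 lower, held in all 19 alternative fits that tested them. With the 3'/5' index as a covariate 19 of the 28 calls held, although the index itself differed between the groups, so that this fit separates them only in part. When each array was left out in turn, 21 calls held in all 6 fits. Intensities are relative within an array and the cultures were measured in bulk, so fewer cells with a transcript and less of it per cell cannot be told apart.

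**Figure D1:**
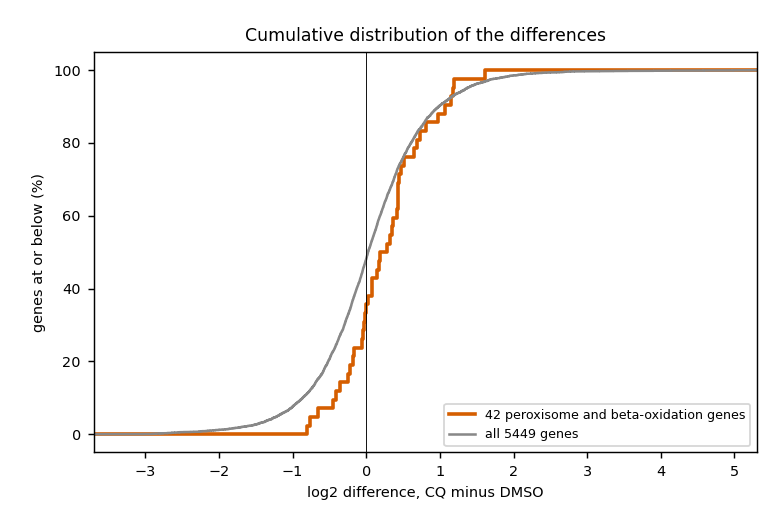
Cumulative share of genes (vertical axis, percent) at or below each log2 difference, CQ minus DMSO (horizontal axis), for the 42 peroxisome and beta-oxidation genes and for all 5449 genes. The curve of the 42 genes starts at -0.80 and ends at 1.62, a narrower span than that of all genes, and its median lies at 0.23.

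Of the 3 enzymes of the core cycle 2 rose and 1 did not pass, and differences between them were not tested. The counts of this and the following groups of the 42 genes stand beside 36.1% of all genes that rose and 31.9% that fell. POX1 (YGL205W), the acyl-CoA oxidase that takes the first step and makes hydrogen peroxide, read 558, 499 and 739 on the CQ arrays, against 179, 168 and 199 on the DMSO arrays. All CQ arrays lay far above all DMSO arrays, and CQ replicate 3 was the highest. The difference of 1.62 ± 0.14 on the log2 scale (± SE, 3 arrays per group, limma adjusted p = 3.06e-05) was the largest of the 42 genes and ranked 165 of 5449 genes from the top. FOX2 (YKR009C), whose product carries out both the hydration and the following dehydrogenation, read 2990.1, 3045 and 3231 on the CQ arrays, against 2368, 2282 and 2209 on the DMSO arrays. Its groups were apart as well, but the rise was smaller, 0.43 ± 0.073 (adjusted p = 0.00107), and 0.28 with the coding-length trend removed. POT1 (YIL160C), the thiolase that releases acetyl-CoA, read 1976, 1992 and 2399 on the CQ arrays, against 1524, 1761 and 2371 on the DMSO arrays. Its groups overlapped because DMSO replicate 3 was as high as the CQ arrays, and its difference of 0.19 ± 0.16 did not pass (adjusted p = 0.328, 95% interval -0.19 to 0.56). Without DMSO replicate 3 it was 0.36 and passed, while over all 6 fits without 1 array it ran from 0.048 to 0.36, and with the index as a covariate it was 0.58 and did not pass.

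**Figure D2:**
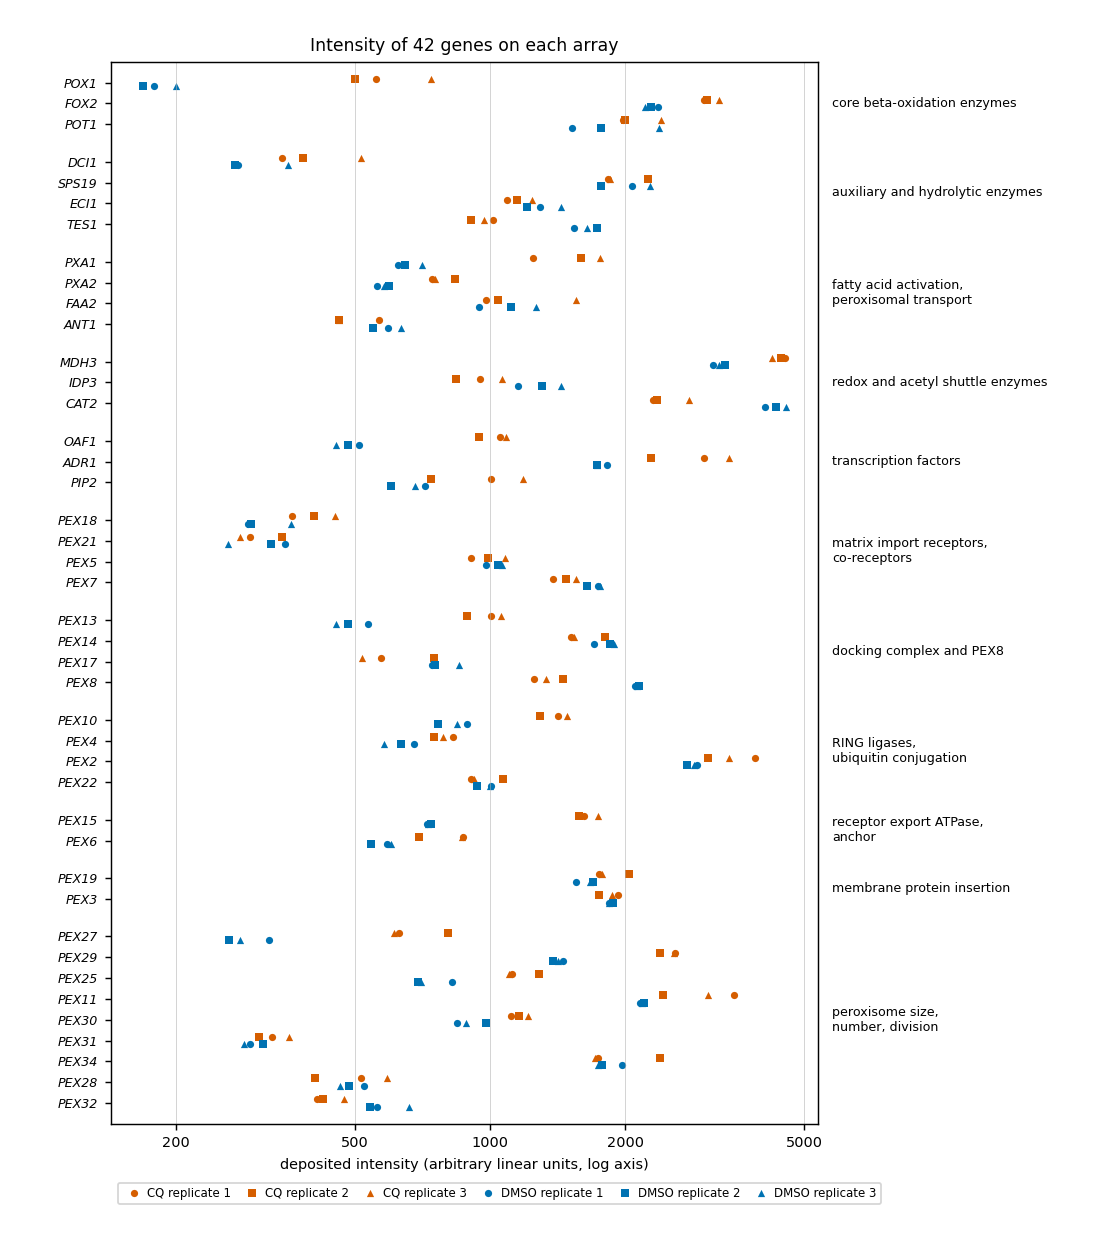
Deposited intensity (horizontal log axis, arbitrary linear units) of each of the 42 genes (rows, grouped by role) on the 3 CQ and 3 DMSO arrays, 1 symbol per array. POX1, PEX27, PEX15 and OAF1 show a wide gap between the groups with CQ to the right, CAT2, TES1 and PEX8 a gap with CQ to the left, and PEX3, PEX5 and SPS19 overlap.

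Of the 4 auxiliary enzymes, which prepare unsaturated chains for the cycle or take CoA esters out of it, 1 rose, 1 fell and 2 did not pass. TES1 (YJR019C), a thioesterase that frees fatty acids from CoA, read 1014, 905 and 968 on the CQ arrays, against 1538, 1727 and 1644 on the DMSO arrays. Every CQ array was below every DMSO array, with a difference of -0.76 ± 0.082 (adjusted p = 8.67e-05). DCI1 (YOR180C), a peroxisomal protein of the isomerase family, read 344, 383 and 517 on the CQ arrays, against 275, 270.4 and 355 on the DMSO arrays. It rose by 0.44 ± 0.16 (adjusted p = 0.0426), although CQ replicate 1 lay below DMSO replicate 3. The call of DCI1 was lost without CQ replicate 3 (0.27), DMSO replicate 1 (0.38) or DMSO replicate 2 (0.37) and after quantile normalization or centring, and the value was 0.90 with the index as a covariate. Its relative ECI1, the enoyl-CoA isomerase, stood at -0.18 ± 0.091 (adjusted p = 0.118, 95% interval -0.39 to 0.035), and passed at -0.27 after quantile normalization and at -0.31 after centring on the median. SPS19, the dienoyl-CoA reductase, stood at -0.042 ± 0.12 (adjusted p = 0.775, 95% interval -0.32 to 0.24) with overlapping groups.

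The genes of both subunits of the fatty acyl-CoA importer rose. Pxa1 and Pxa2 form an ABC transporter that brings long chains into the peroxisome. PXA1 (YPL147W) read 1243, 1589 and 1752 on the CQ arrays, against 622, 645 and 704 on the DMSO arrays, a rise of 1.19 ± 0.13 (adjusted p = 9.00e-05). PXA2 (YKL188C) read 741, 835 and 755 on the CQ arrays, against 560.2, 596 and 580.0 on the DMSO arrays, a rise of 0.41 ± 0.078 (adjusted p = 0.00187). Neither gene had overlapping groups, and the spread between CQ arrays was wider for PXA1. The call of PXA2 was lost with the index as a covariate (0.26, adjusted p = 0.136). FAA2 (YER015W), which makes CoA esters from medium chains inside the peroxisome, read 978, 1042 and 1553 on the CQ arrays, against 945, 1114 and 1262 on the DMSO arrays. Its groups overlapped, with CQ replicate 3 above all other arrays, and its difference of 0.083 ± 0.18 did not pass (adjusted p = 0.704, 95% interval -0.34 to 0.51). It ran from -0.12 to 0.21 without 1 array and was 0.67 with the index as a covariate, not past the threshold in any of these. ANT1, the carrier that brings ATP in for that reaction, stood at -0.25 ± 0.10 (adjusted p = 0.0596), and passed after quantile normalization (-0.37), after centring (-0.39 on the median, -0.31 on the 75th percentile), and without CQ replicate 1 (-0.35).

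Of the 3 redox and acetyl shuttle enzymes 1 rose and 2 fell, the call of IDP3 being lost with the index as a covariate. CAT2 (YML042W), the carnitine acetyltransferase of peroxisomes and mitochondria, read 2309, 2355 and 2767 on the CQ arrays, against 4088, 4326 and 4546 on the DMSO arrays. The groups lay well apart, and the difference of -0.80 ± 0.094 (adjusted p = 1.36e-04) was the lowest of the 42 genes. IDP3 (YNL009W), the isocitrate dehydrogenase that supplies NADPH for unsaturated chains, read 948, 839 and 1061 on the CQ arrays, against 1151, 1306 and 1439 on the DMSO arrays. All CQ arrays were below all DMSO arrays and it fell, with a difference of -0.45 ± 0.12 (adjusted p = 0.00919). With the index its value was -0.054 (adjusted p = 0.8). MDH3 (YDL078C), the malate dehydrogenase that reoxidises NADH in the peroxisome, read 4536, 4432 and 4229.9 on the CQ arrays, against 3126, 3337 and 3227 on the DMSO arrays. It rose with no overlap, by 0.44 ± 0.072 (adjusted p = 8.38e-04).

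The 3 transcription factor genes taken as members of the pathway, OAF1, ADR1 and PIP2, all rose. OAF1 (YAL051W), the partner that senses oleate, read 1054, 942 and 1087 on the CQ arrays, against 509.8, 483 and 455 on the DMSO arrays, a rise of 1.06 ± 0.086 (adjusted p = 2.01e-05). ADR1 (YDR216W), which activates genes under glucose repression, read 2999, 2285 and 3395 on the CQ arrays, against 1817, 1725 and 1728 on the DMSO arrays, a rise of 0.70 ± 0.14 (adjusted p = 0.00242). PIP2 (YOR363C), whose own gene is induced by oleate, read 1004, 738 and 1184 on the CQ arrays, against 714, 601 and 681 on the DMSO arrays, a rise of 0.52 ± 0.16 (adjusted p = 0.0221). None of the 3 overlapped between the groups, and CQ replicate 2 was the lowest CQ array for each. The call of PIP2 was lost without CQ replicate 1 (0.48), CQ replicate 3 (0.37), DMSO replicate 2 (0.45) or DMSO replicate 3 (0.54), after quantile normalization, after centring on the median and with the coding-length trend removed. With the index as a covariate PIP2 stood at 1.20 and ADR1 at 1.26. OAF3 (YKR064W) is not a member and belongs to the list of glucose repression and oleate signalling described below. It read 507, 468 and 498 on the CQ arrays, against 764, 623 and 637 on the DMSO arrays. OAF3 fell with no overlap, with a difference of -0.44 ± 0.096 (adjusted p = 0.00389).

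**Figure D3:**
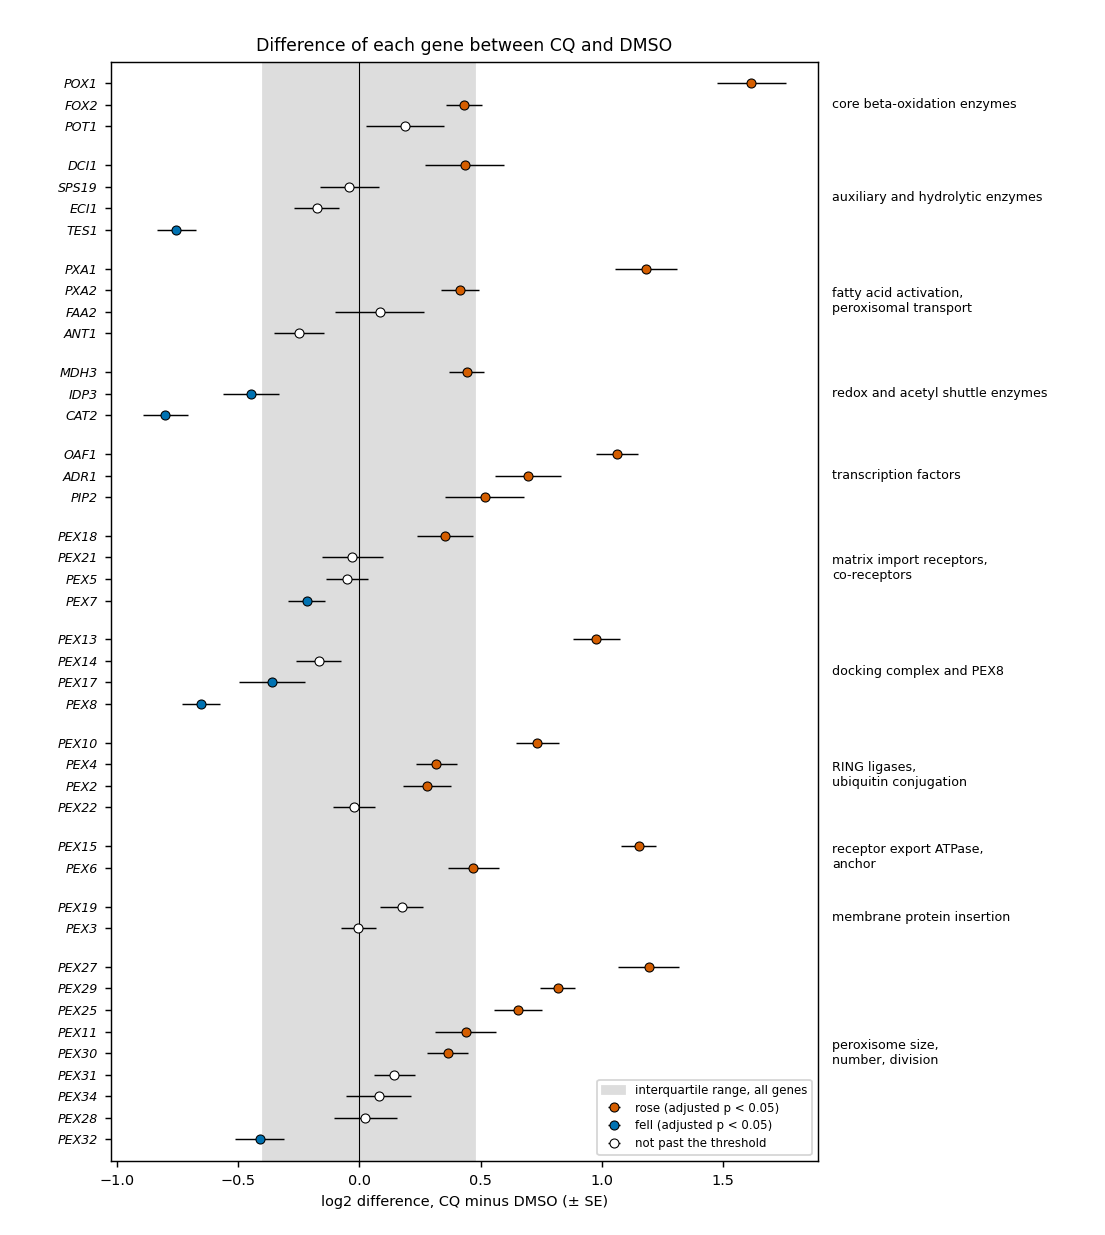
Log2 difference, CQ minus DMSO, of each of the 42 genes (rows, grouped by role) with its standard error from the limma fit. Filled points passed an adjusted p of 0.05, and the grey band is the interquartile range of all 5449 genes. POX1, PXA1, PEX15, PEX27, OAF1 and PEX13 lie farthest to the right and CAT2, TES1 and PEX8 farthest to the left. Other genes also lie beyond the band on each side.

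Among the receptors that bring enzymes to the peroxisome, PEX5, which reads the common C-terminal signal, stood at -0.052 ± 0.086 (adjusted p = 0.61, 95% interval -0.25 to 0.15). PEX7 (YDR142C), which reads the N-terminal signal carried by thiolase, read 1379, 1478 and 1556 on the CQ arrays, against 1738, 1645 and 1755 on the DMSO arrays. It fell with no overlap, but by a small amount (-0.22 ± 0.078, adjusted p = 0.036). The co-receptor gene PEX18 (YHR160C) read 362, 406 and 451 on the CQ arrays, against 289, 294 and 361 on the DMSO arrays, a rise of 0.35 ± 0.12 (adjusted p = 0.0251). PEX21, for the other co-receptor of Pex7, stood at -0.029 ± 0.13 (adjusted p = 0.851, 95% interval -0.32 to 0.26), and the difference between these co-receptor genes was not tested. The call of PEX7 was lost without CQ replicate 1 (-0.17) or any 1 DMSO array (-0.21, -0.25 and -0.20 without DMSO replicates 1, 2 and 3) and with the index as a covariate (-0.15). That of PEX18 was lost without CQ replicate 3 (0.28), DMSO replicate 1 (0.30) or DMSO replicate 2 (0.31), with the index (adjusted p = 0.0598) and after quantile normalization or centring.

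Of the 3 genes of the docking complex, where loaded receptors meet the membrane, and PEX8, 1 rose, 2 fell and 1 did not pass. PEX13 (YLR191W), a membrane protein that binds the receptor, read 1002, 886 and 1059.6 on the CQ arrays, against 533, 484 and 454 on the DMSO arrays. The groups did not overlap, and the gene was 1.97-fold higher with CQ, a rise of 0.98 ± 0.10 (adjusted p = 5.55e-05). PEX14, the docking partner, read 1513, 1798 and 1535 on the CQ arrays, against 1700.5, 1850.1 and 1888 on the DMSO arrays. The groups overlapped at CQ replicate 2, and the difference of -0.17 ± 0.093 did not pass (adjusted p = 0.141). It passed at -0.25 without CQ replicate 2 and at -0.30 after centring on the median. PEX17, the other docking protein, read 570.3, 750.5 and 517 on the CQ arrays, against 742, 755 and 854 on the DMSO arrays. CQ replicate 2 reached into the DMSO range, and the gene fell, with a difference of -0.36 ± 0.14 (adjusted p = 0.0454). Its call was lost without CQ replicate 1 (-0.32) or 3 (-0.25) or DMSO replicate 1 (-0.40), 2 (-0.39) or 3 (-0.30) and with the coding-length trend removed, and it was larger with the index as a covariate (-0.84). PEX8 (YGR077C), which links the docking and the ubiquitin ligase complexes from inside the organelle, read 1252, 1452 and 1332 on the CQ arrays, against 2101, 2149.7 and 2121 on the DMSO arrays. All its CQ arrays lay well below the closely spaced DMSO arrays, with a difference of -0.66 ± 0.08 (adjusted p = 1.67e-04), the lowest of the PEX genes.

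Of the genes analysed here that recycle the receptors, 3 of 4 for ubiquitin ligation and conjugation and 2 of 2 for export rose, and the other did not pass. Among all genes 36.1% rose. PEX10 (YDR265W), a RING ubiquitin ligase, read 1415, 1291 and 1482 on the CQ arrays, against 886, 766 and 846 on the DMSO arrays, a rise of 0.73 ± 0.089 (adjusted p = 1.67e-04). PEX2, another RING ligase, rose by 0.28 ± 0.10 (adjusted p = 0.0358) and PEX4, the ubiquitin-conjugating enzyme, by 0.32 ± 0.085 (adjusted p = 0.0105). PEX22, the membrane anchor of Pex4, stood at -0.022 ± 0.088 (adjusted p = 0.835, 95% interval -0.23 to 0.18). PEX15 (YOL044W), the tail-anchored protein that holds the export ATPase at the membrane, read 1621, 1576 and 1735 on the CQ arrays, against 722, 739.9 and 725 on the DMSO arrays. The arrays of each group lay close together, and the gene rose by 1.15 ± 0.073 (adjusted p = 6.31e-06, the lowest of the 42 genes). PEX6 (YNL329C), an AAA ATPase that pulls receptors out, read 869.8, 693 and 865 on the CQ arrays, against 589.8, 541 and 602 on the DMSO arrays, a rise of 0.47 ± 0.11 (adjusted p = 0.00464). It stood at 0.82 with the index as a covariate and at 0.30 with the coding-length trend removed.

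The call of PEX2 did not hold without CQ replicate 1 (0.19) or 3 (0.29), nor without DMSO replicate 1 (0.29), 2 (0.26) or 3 (0.28). It was also lost with the index (0.47) and after centring (0.14 on the median and 0.22 on the 75th percentile). PEX4 lost its call without DMSO replicate 3 (0.26), with the index (0.35) and after quantile normalization (0.19) or centring on the median (0.18).

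PEX3 and PEX19, which insert membrane proteins and without which no peroxisomes form, were not past the threshold. PEX3 read 1925, 1749 and 1870.1 on the CQ arrays, against 1838, 1881 and 1843 on the DMSO arrays, and its difference of -0.0057 ± 0.073 had a 95% interval of -0.17 to 0.16 (adjusted p = 0.949). PEX19 read 1747, 2038 and 1774 on the CQ arrays, against 1555, 1693 and 1665 on the DMSO arrays. Its CQ arrays all lay above its DMSO arrays but by little (0.17 ± 0.087, adjusted p = 0.108).

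Of the 9 genes analysed here that control the size, number and division of peroxisomes, 5 rose, 1 fell and 3 did not pass, beside 36.1% of all genes that rose and 31.9% that fell. The related genes PEX27, PEX25 and PEX11 all rose. PEX27 (YOR193W), for a membrane protein of the Pex11 family, read 625, 804 and 610.5 on the CQ arrays, against 322, 262 and 277 on the DMSO arrays, a rise of 1.19 ± 0.13 (adjusted p = 7.74e-05). PEX25 (YPL112C), which also acts in the formation of new peroxisomes, read 1118, 1286 and 1104 on the CQ arrays, against 821, 691 and 700.5 on the DMSO arrays, a rise of 0.65 ± 0.10 (adjusted p = 5.89e-04). PEX11 (YOL147C), the main factor of oleate-induced proliferation, read 3481, 2430.3 and 3055 on the CQ arrays, against 2157, 2202 and 2173 on the DMSO arrays, a rise of 0.44 ± 0.13 (adjusted p = 0.0149). For PEX11 the DMSO arrays were almost equal and CQ replicate 2 was the lowest CQ array. The value of PEX27 was 0.77 and that of PEX11 0.81 with the index as a covariate, which ended the call of PEX25 (0.40, adjusted p = 0.0742). Centring on the median ended that of PEX11 (0.30).

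In the other membrane protein families behind peroxisome number some members passed and others did not. PEX29 (YDR479C) read 2577, 2391 and 2567 on the CQ arrays, against 1455, 1378 and 1416 on the DMSO arrays, a rise of 0.82 ± 0.072 (adjusted p = 3.10e-05), while its relative PEX28 stood at 0.023 ± 0.13 (adjusted p = 0.884, 95% interval -0.28 to 0.33). Of the family around Pex30, PEX30 rose by 0.36 ± 0.084 (adjusted p = 0.00522), PEX31 stood at 0.14 ± 0.084 (adjusted p = 0.161) and PEX32 fell, with a difference of -0.41 ± 0.10 (adjusted p = 0.00656). The 3 CQ arrays of PEX32, at 411, 424 and 473, were below its DMSO arrays, at 559.9, 541 and 659. PEX34, which acts beside the Pex11 family, stood at 0.079 ± 0.13 (adjusted p = 0.622) with CQ replicate 2 far above the other arrays. With the index as a covariate PEX30 (0.40) and PEX32 (-0.21) were no longer called (adjusted p = 0.0664 and 0.35), PEX28 was called higher (0.50) and PEX34 lower (-0.45). Differences between related genes were not tested.

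Genes next to the pathway are given by lists chosen for their function. Their counts, here and in the lists below, stand beside 36.1% of all genes that rose and 31.9% that fell. Of 8 genes of peroxisome fission and inheritance 5 rose, 0 fell and 3 did not pass, with a median of 0.51. MYO2, the myosin that carries organelles into the bud, rose by 1.17 ± 0.08, MDV1, an adaptor of the fission dynamin, by 1.09 ± 0.10, and INP2, the receptor that ties peroxisomes to Myo2, by 1.06 ± 0.09. INP2 (YMR163C) read 731, 871 and 803 on the CQ arrays, against 362, 402 and 363 on the DMSO arrays. MYO2 and the fission genes also serve mitochondria and other organelles. Of 5 genes of peroxisome turnover by autophagy 3 rose and 2 did not pass, with a median of 0.54. The scaffold gene ATG11 rose by 1.66 ± 0.084, the kinase gene ATG1 by 1.46 ± 0.12 and ATG8 by 0.54 ± 0.082, the last losing its call with the index as a covariate (0.30). These 3 act in other forms of autophagy too. ATG36 did not pass, at 0.006 ± 0.070 (adjusted p = 0.945) with overlapping groups, nor did ATG17, at 0.18 ± 0.087 (adjusted p = 0.0962).

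Of 13 measured enzymes found in peroxisomes outside the cycle, 4 rose, 4 fell and 5 did not pass, with a median of 0.053. CTA1 (YDR256C), the peroxisomal catalase, a heme protein that removes the hydrogen peroxide made by Pox1, read 165, 236 and 260.4 on the CQ arrays, against 603, 670.4 and 869 on the DMSO arrays. It fell by more than any of the 42 genes, with a difference of -1.63 ± 0.18 (adjusted p = 1.09e-04), while POX1 rose by 1.62 ± 0.14. STR3, a cystathionine lyase, rose by 2.54 ± 0.21 and GTO1, a glutathione transferase, by 1.41 ± 0.10.

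Other genes feed fatty acids to the peroxisome. Of 5 genes of fatty acid activation outside the peroxisomal matrix 1 rose, 3 fell and 1 did not pass (median -0.43). FAA4 (YMR246W), an acyl-CoA synthetase for imported chains, read 1248, 975 and 1229 on the CQ arrays, against 4218, 4419 and 3956 on the DMSO arrays, a difference of -1.86 ± 0.11 (adjusted p = 5.09e-06). FAA3, of the same family, fell, with a difference of -1.02 ± 0.10 (-0.67 with the index as a covariate), and FAT1, a very long chain synthetase and transporter, rose by 1.13 ± 0.076. Of 7 genes of neutral lipid storage and lipolysis 4 rose, 1 fell and 2 did not pass (median 0.27). The lipase gene TGL3 rose by 1.17 ± 0.08 and TGL4 by 0.47 ± 0.077, and TGL5 fell, with a difference of -1.11 ± 0.11.

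In the carnitine shuttle, which takes acetyl units from peroxisomes and cytosol to mitochondria, 3 of 4 genes fell and 1 rose (median -0.34), beside the fall of CAT2. YAT2 (YER024W), an acetyltransferase of the cytosol, read 537, 478 and 702 on the CQ arrays, against 1571, 1481 and 1417 on the DMSO arrays, a difference of -1.37 ± 0.14 (adjusted p = 5.45e-05), and -0.89 with the index as a covariate. YAT1, its relative on the outer side of mitochondria, rose by 0.92 ± 0.10. CRC1, the mitochondrial carrier, fell, with a difference of -0.37 ± 0.12. That call was lost without CQ replicate 1 (-0.26), DMSO replicate 1 (-0.39) or DMSO replicate 3 (-0.28) and with the index as a covariate (-0.30).

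Beside the rise of ADR1, of 6 targets of Adr1 outside the cycle 2 rose, 2 fell and 2 did not pass, with a median of -0.08. CTA1 and ADH2 (-0.62 ± 0.16), the alcohol dehydrogenase that oxidises ethanol, fell and GUT1 (0.51 ± 0.13), the glycerol kinase, rose. With the index as a covariate ADH2 had the opposite sign and no call (0.076) and GUT1 stood at 0.96. Of 11 genes of glucose repression and oleate signalling 4 rose, 4 fell and 3 did not pass (median 0.088). MIG3 rose by 2.03 ± 0.21 and MIG2 by 1.38 ± 0.19, both for repressors related to Mig1. HXK2 (YGL253W), the hexokinase with a role in glucose repression, read 3073, 2742 and 2275 on the CQ arrays, against 5850.1, 5874 and 5861 on the DMSO arrays, a difference of -1.13 ± 0.11 (adjusted p = 5.52e-05).

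**Figure D4:**
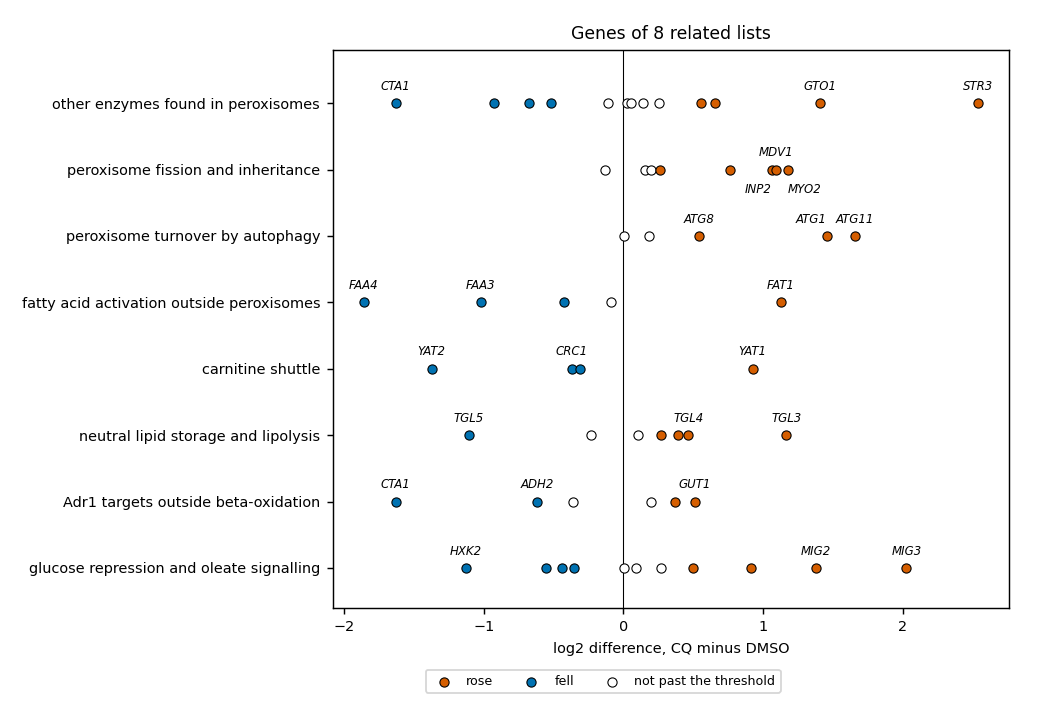
Log2 difference, CQ minus DMSO (horizontal axis), of each gene in 8 lists next to the pathway (rows), coloured by its call, with up to 3 genes per list named. The fission and inheritance list and the autophagy list hold genes that rose and genes not past the threshold, and the other 6 lists hold genes that rose and genes that fell.

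Beside the difference between groups, the enzymes and transporters varied from array to array within each group. Replicate 3 was the highest of its group for 9 of these 14 genes among CQ arrays (64.3%, beside 31.2% of all genes) and for 10 of 14 among DMSO arrays (71.4%, beside 25.5%). It was the highest in both groups for 8 of them, POX1, PXA1, DCI1, POT1, FAA2, ECI1, IDP3 and CAT2 (57.1%, beside 9.95% of all genes). The largest such deviations from the group mean were 0.41 for FAA2 with CQ and 0.35 for POT1 with DMSO on the log2 scale. The 3'/5' index was the lowest of its group on replicate 3 in both groups (1.15 with CQ and 0.88 with DMSO), and its part in this pattern was not tested. Among the 25 PEX genes replicate 3 was the highest for 10 with CQ and for 7 with DMSO. The labels do not tie replicate 3 of both groups to a shared source, and the genes share the same arrays. The counts were read after the values were seen and carry no test.

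**Figure D5:**
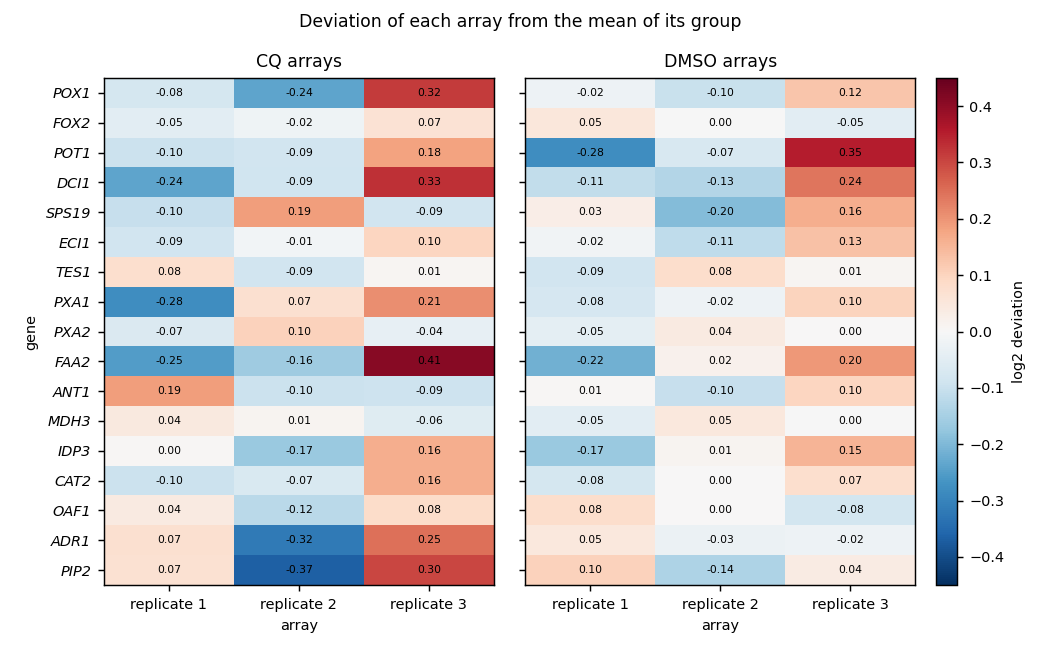
Deviation of each array (columns) from the mean of its own group on the log2 scale, for the 14 enzyme and transporter genes and the 3 transcription factor genes (rows), with CQ arrays in the left panel and DMSO arrays in the right. Replicate 3 is the highest in both panels for POX1, PXA1, DCI1, POT1, FAA2, ECI1, IDP3 and CAT2, up to 0.41 for FAA2 with CQ. CQ replicate 2 is the lowest CQ array for the 3 transcription factor genes, at -0.12 for OAF1, -0.32 for ADR1 and -0.37 for PIP2. Among the enzymes and transporters it lies below the group mean for some genes, such as POX1 (-0.24), and above it for others, such as SPS19 (0.19).

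In median coding length and spread among arrays, which the choice of genes did not use, the 42 genes lay near all genes. Their median coding length was 1173 bases, beside 1236 over all genes. Across the 42 genes the difference correlated weakly with length (Pearson r = 0.29, beside 0.16 across all genes). These correlations are given as a description, with the arrays shared by all points. The median standard deviation of a gene among arrays was 0.13 with CQ and 0.087 with DMSO on the log2 scale, beside 0.13 and 0.075 over all genes.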

How the data were processed

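Total RNA was extracted with hot phenol and labelled as biotinylated cRNA by the manufacturer's protocol, per the labels' protocols. The deposited table holds 1 linear intensity per probe set and array, as the authors made it; the sources used here do not state the summarising software, scaling or background steps. Of 10928 probe sets, 5498 were named for 1 S. cerevisiae gene and 1746 for fission yeast genes by the platform annotation, with symbols updated through RefSeq (R64). For 47 genes with several probe sets the brightest was used, giving 5449 genes.

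Differences were fitted on log2(intensity + 16), which understates changes of dim genes, with limma 3.58.1 in R 4.3.3 (lmFit, eBayes, two-sided), all 6 arrays and Benjamini-Hochberg adjustment over all genes. Samples were grouped by title. A gene past an adjusted p of 0.05 is said to have risen or fallen. Intervals at 95% come from the same fit. Figures were drawn with matplotlib 3.10.9. The number of arrays limits the precision.

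The members, their roles and the lists were chosen with earlier results of these data known. Any member may be named, the deleted marker genes too, and of each list the 3 genes with the largest difference among those that passed. OAF3, ATG17, ATG36 and STE6 were named as well. PXP1 and PXP2 were not used here. No promoter or protein sequences were used, so the planned motif search was not run. Alternatives were 3 scalings, pseudocounts of 1 and 64, 2 filters, all probe sets averaged, 2 variance models, the replicate block, the 3'/5' index as a covariate, the trend on coding length (RefSeq gene lengths) removed, and each array left out.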

Additional observations from a re-analysis of the deposited data

How the results depend on the processing

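The counts of 21 genes higher and 7 lower became 17 and 9 after quantile normalization, 18 and 8 with arrays centred on the 75th percentile, 15 and 10 centred on the median, 16 and 5 with the 3'/5' index as a covariate, and 20 and 6 with the coding-length trend removed. Over all genes the counts of 1969 higher and 1739 lower became 1842 and 1904, 1780 and 1957, 1578 and 2211, 1596 and 1408, and 1935 and 1694 under the same alternatives, in that order. Leaving out each array in turn gave 17 to 21 higher and 5 to 8 lower. The median difference of 0.23 became 0.098 with arrays centred on the median, as every difference shifts with that centring, and 0.39 with the index as a covariate, where the cause was not tested. With the dimmest 40% of genes left out, 27 of the 42 genes remained, of which 12 rose, and 1184 genes rose and 1083 fell in all, since fewer genes were tested. STE3 stood at -0.48, HIS3 at -1.43 and MFA2 at 0.40, MFA2 losing its call, and PEX34 (-0.45) and ADH2 (0.076) had the opposite sign with the index as a covariate. Pseudocounts, variance models, averaging of probe sets and the filter on background kept all 28 calls. Members not past the threshold in either fit that only changed sign, 0 to 5 per alternative, were counted as unchanged. With the replicate block 21 genes were higher and 5 lower, the calls of PEX7 and PEX17 being lost; the differences themselves cannot move in this balanced design. The labels do not tie same-numbered arrays to a shared source, and the correlations of same-numbered arrays' deviations were 0.055, 0.12 and 0.14 for replicates 1, 2 and 3. All 42 genes were above background, so none of their values is a bound.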
